A study of Mus musculus with 6 samples.

Results

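Chitinase-like proteins and alternative activation genes are 7 mouse genes, Chil3, Chil4, Chil1, Chia1, Retnla, Retnlb and Arg1. They were taken by gene name from the arrays of this series, where each had 1 probe of 60 bases, so they are 7 of 36994 gene names and 7 of 56605 probes. They were picked because Chil3 and Chil4 differed strongly between the groups, so every difference between the groups given here for the 7 genes is a description and carries no test. RNA came from common bile duct epithelium of C57BL/6 mice labelled iFGF10, in a study of FGF10 signalling in papillary neoplasia of the bile ducts that describes the DOX+ mice as overexpressing FGF10, a secreted growth factor. The DOX+ group drank 0.02% doxycycline in water for 5 days (3 arrays), and the DOX- group drank water alone for 5 days (3 arrays). Doxycycline is an antibiotic used to turn on transgenes whose promoter it regulates. The sources used here do not state the promoter that drives the construct or the age of the mice. The DOX- labels call the mice untreated iFGF10 but also carry names beginning with WT and a pair of numbers, so whether the controls held the construct and whether each was 1 mouse or a pool cannot be told. Mice without the construct on doxycycline were not analysed here, so the drug and the induced gene cannot be told apart.

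Chitinase-like proteins share the fold of chitinases, the enzymes that cut the polysaccharide chitin, but have lost the enzymatic activity. In mice Chil3, also called Ym1, Retnla and arginase 1 are the classical markers of alternative activation, the state that macrophages take on under the type 2 cytokines IL-4 and IL-13, which signal through the IL-4 receptor alpha chain and the transcription factor STAT6. Epithelial cells of lung and gut also make several of these proteins in type 2 responses, and hepatocytes make arginase 1 for the urea cycle, so none of the genes marks 1 cell type alone.

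Levels are log2 of the processed spot signal divided by the array's 75th percentile, so 0 is the 75th percentile of that array and a step of 1 is a doubling. Each array had 55.93% to 61.9% of its spots well above background, the scanner software's call that a spot exceeds its background, and 0 spots were saturated. All 10 listed duct epithelium markers were well above background on every array, and so were all 6 smooth muscle and all 6 fibroblast markers. All 9 pancreatic acinar cell markers were so on every array but DOX- replicate 1, where 5 were. Of 3 Fgf10 probes 0 exceeded background by that call on 6 arrays, which leaves the labels without a check by the induced gene. Slide row 1 held the 3 DOX+ arrays with DOX- replicate 1, and row 2 held the other two DOX- arrays. In bulk RNA, fewer cells of a type and less RNA per cell cannot be told apart. Across 20725 genes the limma test called 4 genes higher (0.0193%) and 4 lower (0.0193%) in DOX+ at an adjusted p under 0.05.

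Of the 7 genes, 5 passed the filter on dim probes, which asked that a probe be well above background on every array of one group or the other. Chil3, Chil1 and Retnla were well above background on all 6 arrays. Chil4 and Arg1 were so on 5 of 6 arrays and passed through the DOX+ group alone. Chia1 and Retnlb were well above background on 0 arrays.

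Chil3 and Chil4 lie side by side on chromosome 3, with Chia1 next to Chil3, in the RefSeq gene order of GRCm38.p6. The stretches before their annotated starts are shown because the genes are near-identical copies that both differed strongly. The capitals mark bases that differ from the other gene or have no partner in the alignment. The Chil3 stretch is chr3:106167565-106167786 and the Chil4 stretch chr3:106219508-106219729, both on the minus strand of GRCm38.p6. RefSeq's promoter table held 5 of the 7 genes, all but Retnlb and Arg1.
Chil3: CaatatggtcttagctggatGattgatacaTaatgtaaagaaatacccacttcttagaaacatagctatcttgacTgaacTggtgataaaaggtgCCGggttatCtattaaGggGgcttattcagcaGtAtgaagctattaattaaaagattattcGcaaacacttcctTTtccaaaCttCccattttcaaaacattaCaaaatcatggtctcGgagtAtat
Chil4: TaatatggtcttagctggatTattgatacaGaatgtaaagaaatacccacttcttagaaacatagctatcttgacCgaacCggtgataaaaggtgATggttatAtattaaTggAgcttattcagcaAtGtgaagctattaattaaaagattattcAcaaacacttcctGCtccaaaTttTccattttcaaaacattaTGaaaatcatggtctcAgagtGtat
The stretches were identical at 201 of 223 aligned columns (90.1%), with 20 differing bases and 2 gaps. The other pairs among Chil3, Chil4, Chil1, Chia1 and Retnla were identical at 47.5% to 59.1% of columns. The matching stretch ended 28 bases farther from the annotated start in Chil4 than in Chil3.

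The promoter windows, 250 bases before to 50 after each start, were searched on both strands for TTC and GAA separated by 4 or by 3 bases, letters that STAT proteins are known to bind, and for TATAAA. Chil3 and Chil4 each held TTCTTAGAA, beginning 172 and 200 bases before their annotated starts, in a part of the stretch where they do not differ. With 4 bases between, both had 0 matches. Chil1 and Chia1 had 0 matches with either spacing. Of 32851 promoter windows of 300 bases, 8.3% held the pattern with 3 bases between. Retnla held TTCACAAGAA, with 4 bases between, beginning 145 bases before its start, and 6.95% of the windows held that pattern. The 70 bases around it, at chr16:48842434-48842503 on the plus strand of GRCm38.p6, are shown with the match in capitals.
Retnla: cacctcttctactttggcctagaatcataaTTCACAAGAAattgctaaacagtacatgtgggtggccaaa
TATAAA occurred once each in Chil3, Chil4, Chia1 and Retnla and in 13.6% of all windows. Such matches describe the letters and show no binding.

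Chil3, the secreted chitinase-like protein that forms crystals in inflamed mouse airways, had log2 levels of 0.74, 3.51 and 6.28 on the DOX+ arrays (replicates 1 to 3), against -3.28, -2.22 and -2.24 on the DOX- arrays. Every DOX+ array was higher than every DOX- array, and the lowest DOX+ array was 7.78-fold above the highest DOX- array. The means were 3.51 ± 2.77 in DOX+ and -2.58 ± 0.61 in DOX- (SD, n = 3 each), a log2 difference of 6.09 or 68.0-fold. Its probe lies on the minus strand of mm9 at chromosome 3, 105950485 to 105950544.

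Chil4, the neighbouring copy also called Ym2, had log2 levels of -0.16, 2.81 and 6.89 on the DOX+ arrays, against -5.83, -3.41 and -3.27 on the DOX- arrays, where replicate 1 was not well above background. The groups did not overlap, with the lowest DOX+ array 8.64-fold above the highest DOX- array. The means were 3.18 ± 3.54 in DOX+ and -4.17 ± 1.44 in DOX- (SD, n = 3 each), a log2 difference of 7.35 or 163-fold, and the difference was 6.52 without DOX- replicate 1. Chil4 values that use this array rest in part on a spot at background and are approximate. The probe that gave these values, on the minus strand of mm9 at chromosome 3, 106006584 to 106006643, is shown because it and the Chil3 probe were taken from different parts of closely related transcripts.
Chil4 probe: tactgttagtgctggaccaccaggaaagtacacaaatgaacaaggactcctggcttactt
How far each of the probes also binds the transcript of the other copy was not tested, so which copy gave the signal is uncertain.

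The DOX+ arrays differed widely from each other in Chil3 and Chil4. Chil4 spanned 133-fold among the DOX+ arrays, and Chil3 spanned 46.3-fold among the DOX+ arrays and 2.09-fold among the DOX- arrays. By the SD of the log2 level over the DOX+ arrays Chil4 ranked 4 and Chil3 ranked 27 of 20725 genes, where the median gene had an SD of 0.20. Over the DOX- arrays Chil3 ranked 2185. DOX+ replicate 3 was highest and DOX+ replicate 1 lowest for both genes. Against the DOX- mean, Chil3 stood 3.32, 6.09 and 8.86 log2 units higher in DOX+ replicates 1 to 3. Without DOX+ replicate 3 the log2 differences were 4.70 for Chil3 and 5.50 for Chil4, and without DOX+ replicate 1 they were 7.47 and 9.02.

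**Figure D1:**
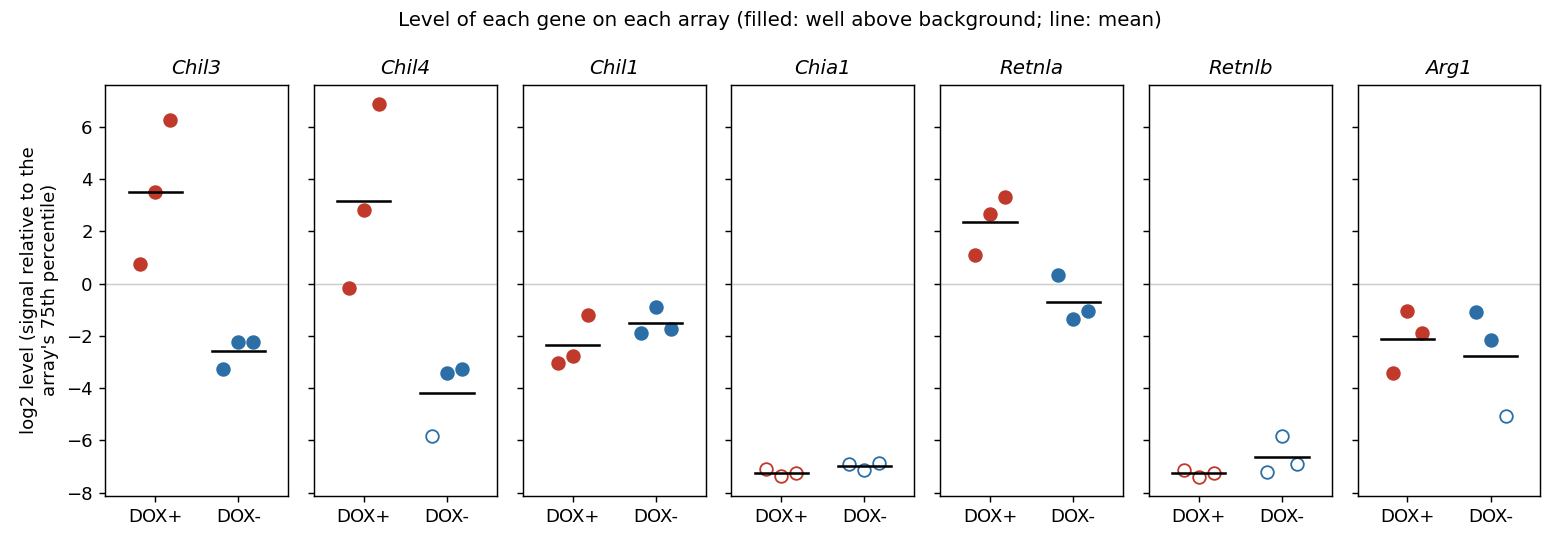
Log2 level (vertical axis, signal relative to the array's 75th percentile) of the 7 genes on each DOX+ array (red) and DOX- array (blue), with replicates 1 to 3 from left to right in each group. Filled points were well above background, open points were not, and lines are group means. Chil3, Chil4 and Retnla do not overlap between the groups, and all 6 points of Chia1 and of Retnlb are unfilled.

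Chil1, a chitinase-like protein made by epithelium and macrophages in injury, did not follow its relatives. It had log2 levels of -3.04, -2.77 and -1.20 on the DOX+ arrays, against -1.88, -0.91 and -1.74 on the DOX- arrays, and the groups overlapped. The mean was -2.33 ± 0.99 in DOX+ and -1.51 ± 0.52 in DOX- (SD, n = 3 each), a log2 difference of -0.83. DOX+ replicate 3 was its highest DOX+ array too, at 1.24-fold the DOX- mean, while replicates 1 and 2 were at 0.347 and 0.417 times that mean. Its probe lies on the plus strand of mm9 at chromosome 1, 136086448 to 136086507.

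Chia1, the acidic chitinase of stomach and lung and the only one of the 7 genes that encodes an active chitinase, did not reach the background call on any array. Its levels were -7.11, -7.38 and -7.24 in DOX+ and -6.91, -7.15 and -6.87 in DOX-, values at background that have no order. The probe lies at chromosome 3, 105934967 to 105935026 (mm9). Chia1 thus gave no measurable difference, unlike its neighbours Chil3 and Chil4.

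Retnla encodes a small secreted protein of the resistin family, induced by IL-4 and IL-13 in mouse macrophages and lung epithelium. It had log2 levels of 1.09, 2.65 and 3.33 on the DOX+ arrays, against 0.32, -1.36 and -1.06 on the DOX- arrays. The groups did not overlap, but the lowest DOX+ array was only 1.71-fold above the highest DOX- array, replicate 1. The means were 2.36 ± 1.15 in DOX+ and -0.70 ± 0.89 in DOX- (SD, n = 3 each), a log2 difference of 3.06 or 8.32-fold. The 3 DOX+ arrays stood in the same order as for Chil3 and Chil4, at 3.45-fold, 10.2-fold and 16.4-fold the DOX- mean. Its probe lies at chromosome 16, 48844447 to 48844506 (mm9).

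Retnlb, the goblet cell protein of the same family and the direct neighbour of Retnla on chromosome 16, did not reach the background call on any array. Its levels were -7.13, -7.40 and -7.26 in DOX+ and -7.22, -5.82 and -6.89 in DOX-. The probe lies at chromosome 16, 48818874 to 48818933 (mm9). The remaining resistin family genes, Retn and Retnlg, had log2 differences of 0.70 (SE 1.08) and 0.65 (SE 1.46), and neither passed the limma test (adjusted p = 0.812 and 0.880). Retnlg reached the background call on 2 of 3 DOX- arrays, so its difference is approximate.

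Arg1 encodes arginase 1, which turns arginine into ornithine and urea. It had log2 levels of -3.43, -1.04 and -1.88 on the DOX+ arrays, against -1.10, -2.17 and -5.08 on the DOX- arrays, where replicate 3 was not well above background. The groups overlapped, with DOX- replicate 3 below every DOX+ array, and had means of -2.12 ± 1.21 in DOX+ and -2.78 ± 2.06 in DOX- (SD, n = 3 each). The log2 difference of 0.66 turned to -0.49 without DOX- replicate 3, so no direction can be given. The probe, shown because Arg1 is the marker that departs from Chil3 and Retnla, lies on the minus strand of mm9 at chromosome 10, 24636194 to 24636253.
Arg1 probe: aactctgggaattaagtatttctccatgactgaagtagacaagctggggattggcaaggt
The hepatocyte markers, which would move with liver RNA, had summed signals of 72.2, 149 and 81.5 in DOX+ and 168, 98.4 and 63.4 in DOX- (replicates 1 to 3). Within each group these sums stood in the same order of arrays as the Arg1 levels. Of 11 hepatocyte markers measured, 3 were higher and 8 lower in DOX+, and their part in the Arg1 levels was not tested.

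Among the 5 measured genes 3 had groups that did not overlap with DOX+ higher, against 10.1% of all genes, and 2 overlapped. The genes were picked from this contrast, so nothing is read from that count. By log2 difference among 20725 genes Chil3 ranked 4, Retnla 83 and Chil1 20015. Chil4 ranked 1 and Arg1 1424, both with 1 DOX- array at background. Blocking on slide row leaves only DOX- replicate 1 to compare with the DOX+ arrays, and the log2 differences were then 6.79 for Chil3, 2.04 for Retnla, -0.46 for Chil1 and -1.02 for Arg1. For Chil4 that single array was at background, so its value in this comparison is not given. The classical trio of alternative activation thus differed among itself: Chil3 and Retnla were higher on every DOX+ array, and Arg1 was not.

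**Figure D2:**
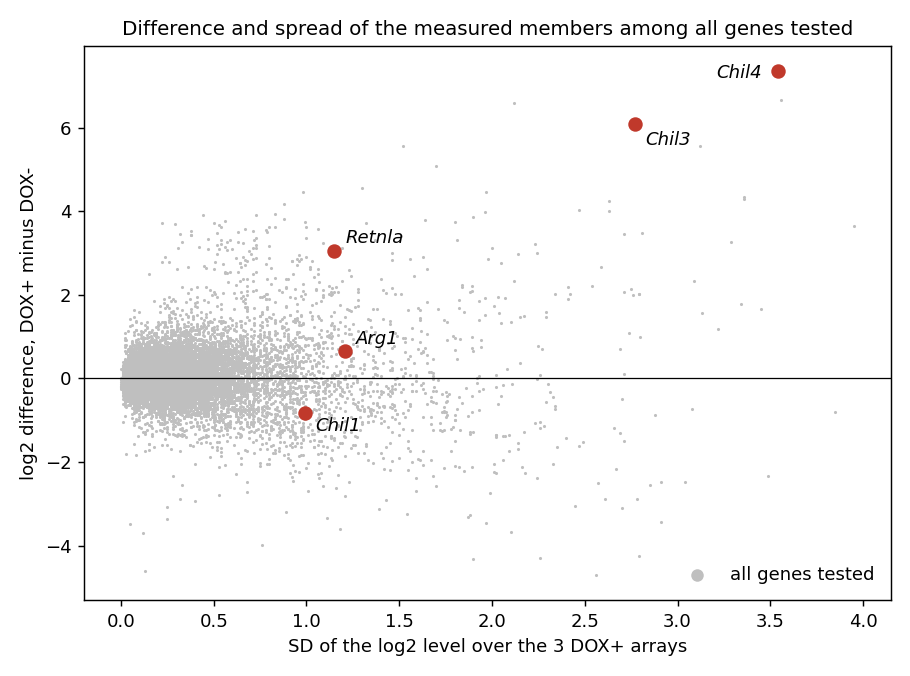
Each point is 1 of 20725 genes. The horizontal axis is the SD of its log2 level over the 3 DOX+ arrays, and the vertical axis is its log2 difference, DOX+ minus DOX-. Chil4 and Chil3 sit at the upper right, with SDs of 3.54 and 2.77, while Retnla, Arg1 and Chil1 have SDs of 1.15, 1.21 and 0.99.

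The genes nearest to Chil3 and Chil4 in pattern were sought among 15494 named genes that were well above background on all DOX+ arrays. Likeness was the root mean square difference over the 6 arrays between log2 levels, each centred on the gene's own mean. Chil4 lay at 0.93 from Chil3. The same 4 genes came first for both. They were Mcpt1, the chymase of mucosal mast cells (0.77 from Chil3 and 1.4 from Chil4), Elobl, an elongin B-like gene (0.78 and 1.42), the noncoding RNA Snhg11 (1.18 and 2.00) and the sulfotransferase gene Sult5a1 (1.24 and 2.13). The fifth was Tdh, a threonine dehydrogenase gene, for Chil3 (1.5) and the goblet cell mucin Muc2 for Chil4 (2.31). Mcpt1 had log2 levels of -0.72, 1.32 and 5.42 in DOX+, against -3.40, -2.86 and -4.43 in DOX-. These Mcpt1 levels show the separation of the groups and the wide spread among DOX+ arrays that the search looked for. The neighbours were found by their likeness to Chil3 and Chil4, so nothing is read from what they share. On the DOX- arrays Elobl reached the background call on 0 of 3 and Muc2 on 1 of 3. Retnla lay farther away, at 1.99 from Chil3 and 2.91 from Chil4.

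**Figure D3:**
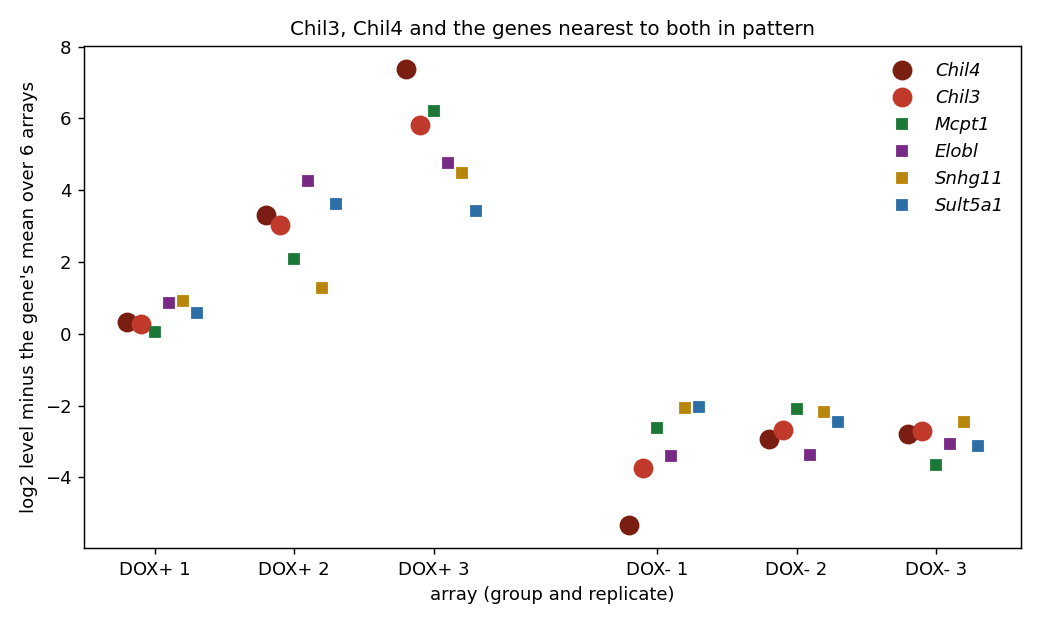
Log2 level minus the gene's mean over 6 arrays (vertical axis) on each array (horizontal axis, DOX+ left, DOX- right) for Chil4 and Chil3 (circles) and the 4 genes nearest to both (squares). All 6 genes lie above their mean on every DOX+ array and below it on every DOX- array. The 4 were picked for this likeness, so the shared pattern is no separate result.

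Marker lists of cell types that can make these proteins were read beside them, as summed signals relative to the 75th percentile. None of the markers passed the limma test (lowest adjusted p = 0.172). Of 10 mast cell markers listed 9 were measured, all 9 had higher means in DOX+, and the summed signals were 9.54, 16.1 and 106 in DOX+ against 6.41, 3.18 and 2.72 in DOX-. On DOX+ replicate 3 the sum held Mcpt1 and Mcpt4 at log2 levels of 5.42 and 5.54. For 7 of the 9 the groups did not overlap with DOX+ higher, against 10.1% of all genes. Among those 7, Fcer1a and Ms4a2 reached the background call on 1 of 3 DOX- arrays each and passed the dim-probe filter through DOX+ alone. Their part in these counts thus rests in part on spots at background. Kit had a log2 difference of 0.09 by the probe used and -0.2 by its other probe. The tryptase gene Tpsab1 was well above background on 2 DOX+ arrays and 0 DOX- arrays. Goblet cell markers summed to 44.9, 147 and 126 in DOX+ and 80.3, 79.2 and 134 in DOX-. Of 7 measured goblet cell markers 5 were higher and 2 lower in DOX+ (median 2.33 log2 units), and for 1 of the 7 the groups did not overlap. Muc2 reached the background call on 1 of 3 DOX- arrays and Zg16 on 2. On DOX+ replicate 1 Agr2 lay above its DOX- range, Muc2, Clca1, Spdef and Zg16 lay within theirs, and Fcgbp and Tff3 lay below. Macrophage markers, all 12 measured, summed to 66.0 to 80.4 in DOX+ and 47.4 to 97.7 in DOX-, with 7 higher and 5 lower and a median log2 difference of 0.07. Eosinophil markers summed to 1.45, 1.85 and 6.77 in DOX+ and 2.77, 3.68 and 2.39 in DOX- over 5 measured genes. DOX+ had the higher mean for 4 of these 5, among them Ear1 (1.51 log2 units) and Ear2 (1.43). It had the lower mean for Siglecf (-1.20). The median of the 5 differences was 0.25, and the groups of all 5 overlapped. The eosinophil peroxidase gene Epx did not reach the background call on any array. Prg2 reached it on 2 DOX+ arrays and 0 DOX- arrays, and Ccr3 on 2 arrays of each group. Tuft cell markers, 7 measured, summed to 4.03, 13.8 and 34.3 in DOX+ and 11.7, 22.7 and 23.9 in DOX-, with 1 higher and 6 lower. The mast cell, eosinophil and tuft cell sums were all highest on DOX+ replicate 3. Neutrophil markers, 6 measured, summed to 2.51 to 29.1 in DOX+ and 9.77 to 129 in DOX-. In DOX+ 3 of them were higher and 3 lower (median -1.3 log2 units). For 1 of the 6, Ly6g, the groups did not overlap with DOX+ higher, against 10.1% of all genes. Gastric chief cell markers, 5 measured, summed to 3.77, 10.1 and 1.44 in DOX+ and 1.38, 1.54 and 1.61 in DOX-. All 5 had higher means in DOX+ (median 0.78 log2 units), and for 2 of the 5 the groups did not overlap, against 10.1% of all genes. Duct epithelium markers, all 10 measured, summed to 500 to 550 in DOX+ and 557 to 745 in DOX-, with 1 higher and 9 lower, and for 4 of the 10 the groups did not overlap with DOX+ lower, against 10.9% of all genes. The part of any of these cell types in the Chil3 and Chil4 levels was not tested.

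**Figure D4:**
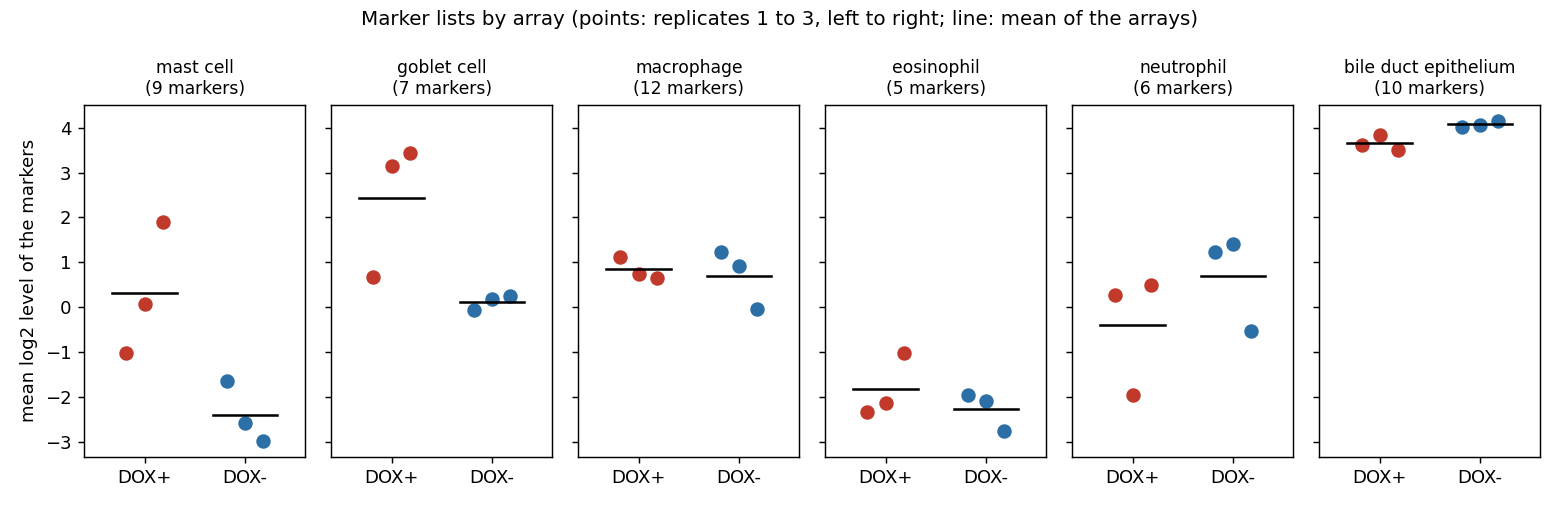
Mean log2 level of the measured markers of 6 cell types (vertical axis) on each DOX+ array (red) and DOX- array (blue), replicates 1 to 3 from left to right, with lines at group means. The mast cell and goblet cell means lie higher and the duct epithelium means lower on every DOX+ array than on any DOX- array, and the macrophage, eosinophil and neutrophil means overlap. For goblet cells this depends on the measure: the summed signal on DOX+ replicate 1 (44.9) was under all those of DOX- (80.3, 79.2 and 134). Some markers were at background on DOX- arrays, so the mast cell and goblet cell means there are approximate. Well above background on DOX- replicates 1 to 3 were 9, 7 and 7 of 9 mast cell markers and 6 of 7 goblet cell markers each time.

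The other genes of the pathway were taken from 8 lists with 121 genes, of which 88 were measured. None passed the limma test in either direction over all genes, with 14 at an unadjusted p under 0.05 and a lowest adjusted p of 0.176. By the same test 2765 of all 20725 genes had an unadjusted p under 0.05. Of the 88 genes 11 (12.5%) had DOX+ arrays all above the DOX- arrays, against 10.1% of all genes, and 5 (5.68%) had them all below, against 10.9% of all genes. Their median log2 difference was 0.14, against -0.01 over all genes. The counts of genes whose groups did not overlap were thus near the background when DOX+ was higher and under it when DOX+ was lower.

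Among relatives of the chitinases, Chid1, a conserved lectin-like member, had a difference of 0.18 log2 units (SE 0.12, limma adjusted p = 0.552), and its other 2 probes gave -0.13 and -0.22. Ctbs, the lysosomal chitobiase, had 0.09 (SE 0.15), with -0.02 from its other probe. Ovgp1, the oviduct glycoprotein, had 0.47 (SE 0.75) and reached the background call on 2 of 3 DOX- arrays. Chit1, the second active chitinase of the mouse, was well above background on 1 DOX+ array and 0 DOX- arrays. Chil5 and Chil6 were so on 0 arrays, and none of the 3 measured relatives had a difference near those of Chil3 and Chil4.

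Of the type 2 cytokine genes, Il13, Il5 and Il9 were not well above background on any array, and Il4 was so on 2 DOX+ arrays and 1 DOX- array. Il13ra2, the decoy receptor of IL-13, was so on 2 DOX+ arrays and 0 DOX- arrays. The receptor and its signalling chain were measured on every array. On the log2 scale Il4ra averaged 2.51 ± 0.17 in DOX+ and 2.41 ± 0.06 in DOX-, Stat6 had 1.12 ± 0.17 in DOX+ and 1.22 ± 0.11 in DOX-, and Il13ra1 had 3.04 ± 0.23 in DOX+ and 3.48 ± 0.27 in DOX- (SD, n = 3 each). None of the 3 passed the limma test (adjusted p = 0.773, 0.782 and 0.400), and the log2 difference of Il4ra was 0.10 by this probe and -0.06 by its other probe.

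Of the 15 measured genes of IL-4, IL-13 and STAT6 signalling 0 passed, 11 had higher and 4 lower means, and the median log2 difference was 0.13. Those with the smallest p were Cish, a cytokine-induced inhibitor of STAT signalling, and Il1rl1, the IL-33 receptor carried by mast cells and type 2 lymphoid cells. Cish had a difference of 1.23 log2 units (SE 0.29, limma adjusted p = 0.212) and Il1rl1 of 2.39 (SE 0.57, limma adjusted p = 0.219), with every DOX+ array above every DOX- array for both. The kinases Jak3 and Tyk2 had 0.60 (SE 0.23) and 0.37 (SE 0.15), but the other 2 Jak3 probes gave -0.06 and 0.10.

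The 24 measured genes of alternative activation had a median log2 difference of 0.42, with 17 higher, 7 lower and 0 past the test. That median was 0.12 without DOX- replicate 3 and -0.08 when blocked on slide row. Ccl8, a chemokine of tissue macrophages, had log2 levels of 0.15, 2.07 and 1.13 on the DOX+ arrays, against -0.50, -1.92 and -2.68 on the DOX- arrays, a difference of 2.81 (SE 0.69, limma adjusted p = 0.224). The groups of Ccl8 did not overlap. Rnase2a, an eosinophil-associated ribonuclease listed under its older symbol Ear11, had 2.32 (SE 0.75, limma adjusted p = 0.299). The haemoglobin scavenger receptor Cd163 had 1.38 (SE 0.42) and the folate receptor Folr2 0.87 (SE 0.29), both macrophage receptors. Mrc1, the mannose receptor and a further classical marker of this state, had -0.60 ± 0.37 in DOX+ and -1.0 ± 0.53 in DOX- (SD, n = 3 each), with overlapping groups and a limma adjusted p of 0.609. Ccl22, Msr1 and Pdcd1lg2 were not well above background on any array.

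Genes of classical activation, the state of macrophages under interferon and bacterial products, had a median of -0.38 over 10 measured members, with 4 higher, 6 lower and 0 past the test. Nos2, the enzyme that competes with arginase for arginine, had -1.90 ± 0.65 in DOX+ and 0.15 ± 1.71 in DOX- (SD, n = 3 each; limma adjusted p = 0.379). The cytokine genes Il1b and Tnf had log2 differences of -2.91 (SE 1.27) and -1.93 (SE 0.89), and the chemokine gene Cxcl10 had -0.97 (SE 0.48). The groups of all 4 genes overlapped.

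Epithelial genes of the type 2 response, of which Agr2, Clca1, Spdef and Fcgbp are also among the goblet cell markers, had a median of 0.18 over 16 measured members, 10 higher, 6 lower and 0 past the test. Agr2, a disulfide isomerase of mucus-producing cells, had a difference of 5.56 log2 units (SE 1.07, limma adjusted p = 0.176), the lowest adjusted p among the pathway genes, and its groups did not overlap. Clca1, a goblet cell secretory protein induced by IL-13, had log2 levels of -2.44, 3.58 and 2.89 in DOX+ against -1.76, -2.50 and -1.48 in DOX-. Thus Clca1 was high on 2 of 3 DOX+ arrays and low on replicate 1, the array with the least Chil3 and Chil4 in that group. Its difference was 3.26 (SE 1.55, limma adjusted p = 0.423). Foxa3, a goblet cell transcription factor, had 2.18 (SE 0.80) and reached the background call on 1 of 3 DOX- arrays, and Fcgbp, a mucus protein, had -0.52 (SE 0.22).

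Arginine and polyamine genes had 4 of 13 measured members higher, 9 lower, 0 past the test and a median of -0.22. Slc7a1, the main arginine transporter, had a difference of -0.85 log2 units (SE 0.27, limma adjusted p = 0.295). Odc1, which makes putrescine from ornithine, had -0.69 (SE 0.32), and Slc7a7, an exporter of arginine, had -0.34 (SE 0.15). For these 3 genes every DOX+ array was below every DOX- array. Arg2, the mitochondrial arginase, had 1.6 (SE 1.28) and Gatm, of creatine synthesis, 1.13 (SE 0.54), both with overlapping groups. Arg2 reached the background call on 2 of 3 DOX- arrays, so its difference is approximate.

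Of 5 measured receptors and binding partners 1 was higher and 4 lower with a median of -0.12, and 0 passed. Tmem219, a transmembrane protein gene, had a difference of -0.19 log2 units (SE 0.14) and Lgals3, the lectin galectin 3, -0.46 (SE 0.31). The receptor Tlr4 had -0.12 (SE 0.24) and the kinase Btk 0.32 (SE 0.64).

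**Figure D5:**
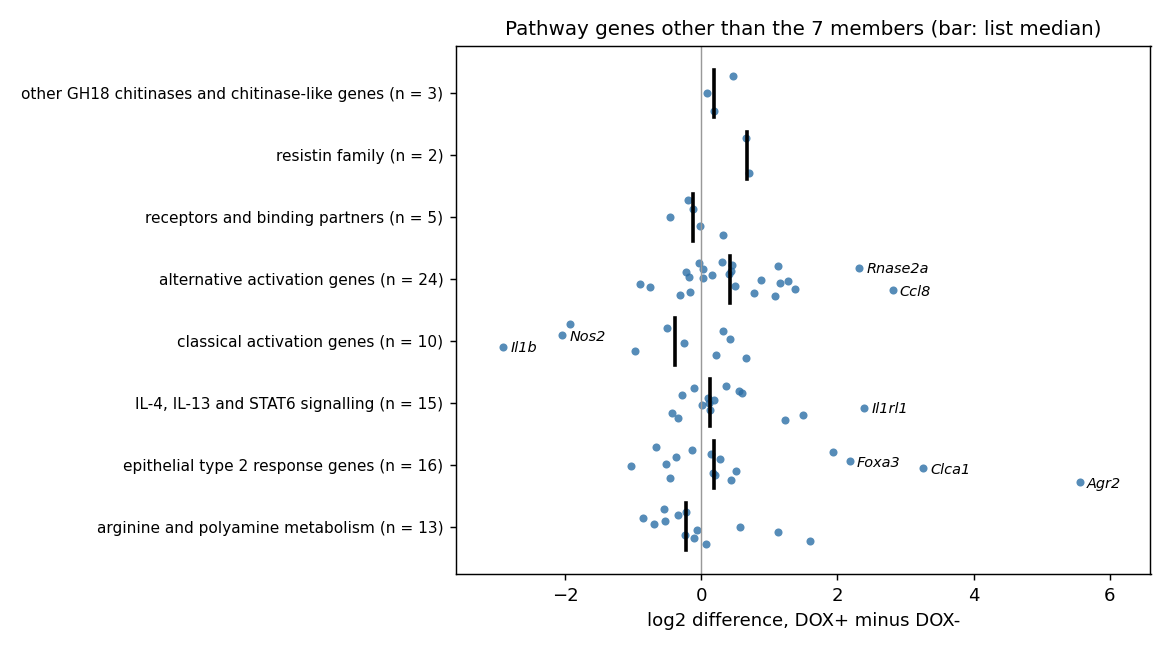
Log2 difference, DOX+ minus DOX- (horizontal axis), of the measured genes of 8 lists, none of which holds any of the 7 genes. Each point is a gene, bars are list medians, and genes beyond 2 in either direction are named. Agr2 at 5.56 lies farthest from 0.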

How the data were processed

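Per the file headers, the authors extracted 1 Cy3 array per sample with Agilent Feature Extraction 10.7.1.1 (9.5.1.1 per the submitters' processing notes), which subtracted background and removed spatial trends from the deposited intensity array by array. The deposited value table holds quantile-normalised intensity with a median of 57.79 in each column and was an alternative. Here each log2 intensity was scaled by its array's 75th percentile, outlier spots were left out, and spots of a probe averaged. Probes well above background on every array of one group or the other were kept (31720 of 56605), and the probe with the highest mean stood for a gene. RefSeq (GRCm38.p6) named 33903 probes through their accession, 9458 through their symbol and 488 through an older symbol, and for 12756 the file's own name was used. Probe positions are on mm9, per the file headers. DOX+ and DOX- were compared by limma 3.58.1 (R 4.3.3; two-sided, Benjamini-Hochberg over 20725 genes; tested on simulated data). The number of arrays limits the precision (median SE of a log2 difference 0.185). The labels do not say that replicates are separate mice, so p-values cover the spread between these samples, which may be technical. All arrays lay on 1 slide from 1 scan. Members and lists were chosen with earlier results of these data known. Named by rule were the 7 members, the 5 genes nearest in pattern to Chil3 and Chil4, up to 4 genes with the smallest p of each pathway list, and Il4ra, Il13ra1, Stat6, Mrc1, Nos2, Arg2, Chit1 and Chid1. Genes named as not detected and the marker genes were chosen after their values were seen. Alternatives were the background correction and normalisation, the authors' values, the percentile, the dim-probe filter, the mean over probes, replicate and slide row blocks, and each array left out.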

Additional observations from a re-analysis of the deposited data

How the results depend on the processing

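The log2 differences of Chil3, Chil4, Retnla and Chil1 kept their sign under all 13 alternatives (for Chil4 the slide row block rests on an array at background) and moved by less than the SD of the DOX+ arrays. Leaving out single arrays gave 4.70 to 7.47 for Chil3, 5.50 to 9.02 for Chil4, 2.57 to 3.69 for Retnla, -1.39 to -0.48 for Chil1 and -0.49 to 1.5 for Arg1. Arg1 turned to -0.49 without DOX- replicate 3 and to -1.02 when blocked on slide row; the cause was not tested. The count of 8 genes past the limma test was 2 with the authors' processed values, 1 with no filter on dim probes (more genes tested), 0 when blocked on slide row (1409 at an unadjusted p under 0.05) and 0 to 9 without single arrays (0 without DOX- replicate 2, where 1542 had an unadjusted p under 0.05; 1 without DOX+ replicate 1); the cause was not tested. The replicate block gave 0 genes, with 2259 at an unadjusted p under 0.05. Arrays with the same number share only a number: the correlations of their deviations were -0.086, -0.131 and -0.019, and no DOX+ array correlated best with its own number. Of the 88 pathway genes 0 passed under the alternatives other than the slide row block, with 8 to 21 at an unadjusted limma p under 0.05. Over all genes the counts at that threshold were 1542 to 3306 in the same alternatives. The slide row block was left out of both ranges because it leaves only DOX- replicate 1 to compare with the DOX+ arrays, not because pathway genes passed there. Chia1 and Retnlb lay at background, so no difference can be measured for them.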
